A study of Drosophila ananassae with 54 samples.

Results

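The cold response of the Malpighian tubules was measured in adult males of KATH, a Drosophila ananassae line from Kathmandu that the labels describe as tolerant to cold. It rests on 6 of the 54 RNA-seq libraries of the series: every tubule library of KATH, 3 from cold-treated flies (replicates 1, 3 and 4) and 3 from control flies (replicates 1, 4 and 5). All genes of the table were considered. The series as a whole covered hindgut, tubule and body of KATH and of FastBKK and SlowBKK, lines from Bangkok with a tolerant and a sensitive phenotype, and asked how a mild cold treatment changes expression in these lines and tissues.

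Cold-treated flies spent 4 days (96 hours) at 10 °C, beginning the day after they emerged from the pupa, and then recovered for 90 min. Control flies stayed at the rearing temperature of 22 °C for the same 4 days, and no recovery period is listed for them. A level called cold is therefore a level after recovery, and the effects of acclimation and recovery cannot be told apart. KATH is a mixture of 3 isofemale lines, each founded by a single wild female, and FastBKK and SlowBKK are mixtures of 4. Every tubule sample combined the organs of 60 individuals, and the RNA was purified with an RNeasy kit and enriched for poly-A transcripts. The labels name no separate cultures for the replicates, so p-values measure the spread between these samples, which may be technical. In pooled tissue, fewer cells of a type and less RNA per cell cannot be told apart.

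Malpighian tubules are the kidney-like organs of insects. Their principal cells use a proton pump to drive potassium and sodium into the tubule lumen, their stellate cells pass chloride and water, and the primary urine is modified further in the hindgut. The tubules also handle uric acid, toxins and immune challenges, and in chilled insects the balance of ions and water that tubules and hindgut maintain is known to be disturbed. No gene product names could be attached to the annotation symbols of this table, because 0 of its symbols and 0 of its FlyBase identifiers were found in the reference gene table used here. Genes are therefore described by symbol, level and tissue distribution, and no function is given for any of them.

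The 6 libraries held between 32.9 and 48.8 M counts. The first principal component of log2 levels held 63.3% of their variance and separated cold from control libraries, and the correlation of log2 levels between replicates of a group was 0.967 to 0.983. In place of named markers, the label was checked with 352 tubule-enriched genes, defined as genes with at least 20 CPM (counts scaled to the library total) in the control tubules of FastBKK and SlowBKK and levels at least 10 times those of the control hindgut and 5 times those of the control body. These genes held 29.4% to 37.2% of all counts in the KATH tubule libraries, against 0.668% to 0.81% in KATH hindgut and 2.03% to 2.29% in KATH body. A pair of libraries carried more transcripts of other tissues than the rest. Control replicate 1 held 2940 CPM of 675 body-restricted genes, against 62.4 to 354 CPM in the other libraries. By the median gene the gap was smaller, at 0.0845% of the body level against 0.0479% in cold replicate 3. Cold replicate 4 held 255 hindgut-restricted genes at a median of 1.25% of their hindgut level, against 0.106% to 0.442% elsewhere. In summed levels these genes stood at 1300 CPM there, but also at 821 CPM in control replicate 5 and 813 CPM in cold replicate 1.

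Close to every other tested gene differed between cold and control tubules. Of 10132 genes tested with edgeR's quasi-likelihood test, 4705 (46.4%) were called at a Benjamini-Hochberg adjusted p under 0.05. The directions were nearly balanced, with 2338 genes higher in the cold (23.1%) and 2367 lower (23.4%), and the median log2 fold change of all tested genes was -0.01. The called changes were mostly moderate: the median log2 fold change was 0.87 for the higher and -0.76 for the lower genes. A fold change over 2 was reached by 1004 higher genes (9.91%) and 842 lower genes (8.31%), and a fold change over 4 by 359 and 250. The 3 cold libraries lay entirely beyond the 3 control libraries in 4538 of the called genes, and in 5744 (56.7%) of all tested genes. Without control replicate 1 and cold replicate 4 together, a choice made after seeing the data, 4012 genes were called, 2054 higher and 1958 lower.

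The genes that distinguish the tubule from the other tissues moved mostly downward. Of the 352 tubule-enriched genes, 207 (58.8%) were lower in the cold, 45 (12.8%) were higher and 100 were not called. Over all tested genes these shares were 23.4% lower and 23.1% higher. The median log2 fold change of the 352 genes was -0.73, with quartiles of -1.33 and -0.09, against -0.01 for all tested genes. A fold change over 2 was reached by 136 of the lower and 25 of the higher members, and 197 members (56%) were called lower without overlap between cold and control libraries, against 22.6% of all tested genes. KATH libraries had no part in choosing these genes, but FastBKK and SlowBKK control libraries did, and the set was defined after the lack of gene names was known. A choice by control level favours falling genes, and the Bangkok lines share much of the response with KATH. With the cold libraries of both Bangkok lines also used in the choice, the set held 311 genes. Of these, 169 (54.3%) were lower and 45 (14.5%) higher, with a median log2 fold change of -0.6.

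The share of the whole library that went to tubule-enriched transcripts was lower in every cold library. It was 29.8%, 29.4% and 30.3% in cold replicates 1, 3 and 4, and 36.4%, 37.2% and 36.7% in control replicates 1, 4 and 5. The groups did not overlap, with means of 29.8% ± 0.451 and 36.8% ± 0.404 (SD, n = 3 each). The two-sided exact permutation test gave p = 0.1, the smallest value that 3 libraries against 3 allow. Leaving out the 5 most abundant members widened the gap, to 17.3% to 19.9% in the cold against 25.3% to 26% in controls. The same share was 29.9% ± 0.252 against 35.7% ± 0.306 in FastBKK tubules and 31.0% ± 0.458 against 37.7% ± 0.737 in SlowBKK tubules (SD, n = 3). The control libraries of the Bangkok lines had chosen these genes, and the Bangkok lines share much of the cold response with KATH. The KATH libraries had no part in the choice, but it can still favour genes that fall in KATH. Shares were not computed for the 311 genes chosen with the cold libraries as well.

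**Figure D1:**
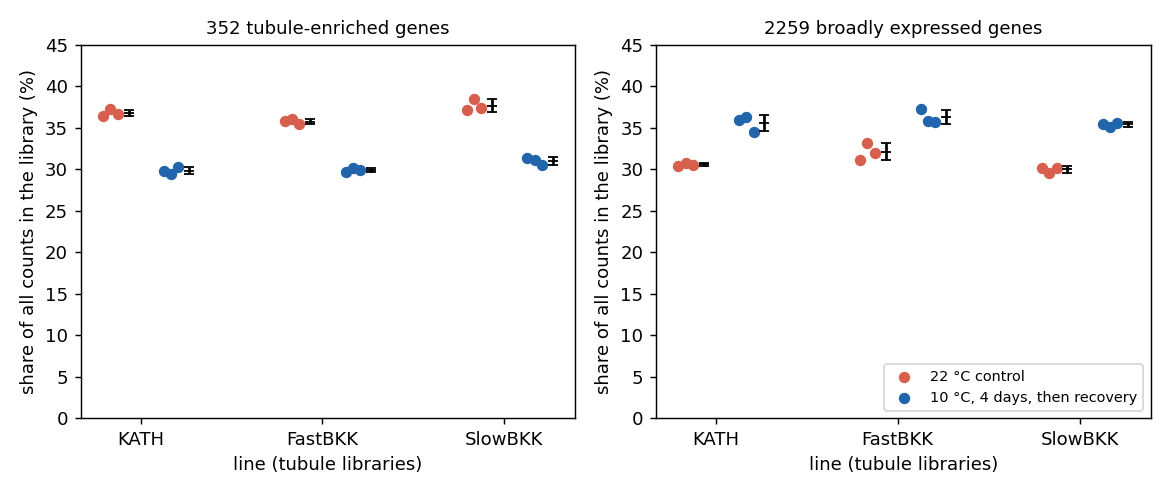
Share of all counts (%, y axis) held by tubule-enriched genes (left) and broadly expressed genes (right) in each tubule library of the 3 lines (x axis); points are libraries and black marks the mean ± SD of 3. In KATH the tubule-enriched share sits at 29.4% to 30.3% in the cold and 36.4% to 37.2% in controls, while the broad share is higher in the cold.

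Broadly expressed genes held a larger share of counts in the cold libraries. These were 2259 genes with at least 20 CPM in every tissue whose Bangkok control levels lay within a factor of 3 of each other in tubule, hindgut and body. Of them, 587 (26%) were higher in the cold and 678 (30%) lower, with a median log2 fold change of -0.01. Their share of counts was 35.9%, 36.3% and 34.5% in the cold replicates and 30.4%, 30.8% and 30.5% in the controls, with no overlap (exact permutation p = 0.1, again the smallest possible). Shares are of raw counts, while fold changes use levels adjusted by TMM factors, so the measures are on different scales. Since shares add up to the same total, a lower share of tubule-enriched transcripts raises the share of others, and absolute amounts of RNA were not measured.

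Among abundant genes more were lower than higher in the cold. Genes were sorted by the mean of their cold and control levels in the Bangkok tubules, a choice made after seeing the data, so that neither treatment alone nor any KATH value placed them. At 1000 CPM or more, 99 of 211 genes (46.9%) were lower in the cold and 30 (14.2%) higher, with a median log2 fold change of -0.26. Between 100 and 1000 CPM, 646 of 1775 (36.4%) were lower and 448 (25.2%) higher. The directions were nearly even between 10 and 100 CPM, with 1105 of 4014 genes lower and 1166 higher. Sorted by the Bangkok control level alone, as was done first, 133 of 239 genes (55.6%) at 1000 CPM or more were lower and 20 (8.37%) higher. That sorting favours falling genes at the top and rising genes at the bottom, since the Bangkok lines share much of the response. Below 1 CPM the median was 0 by the mean level and 0.16 by the control level, and no direction is read there, because a scarce gene could enter the test through the treatment in which it was higher. Gene length gave no such gradient: the median log2 fold change lay between -0.01 and 0 in each of 4 length groups.

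**Figure D2:**
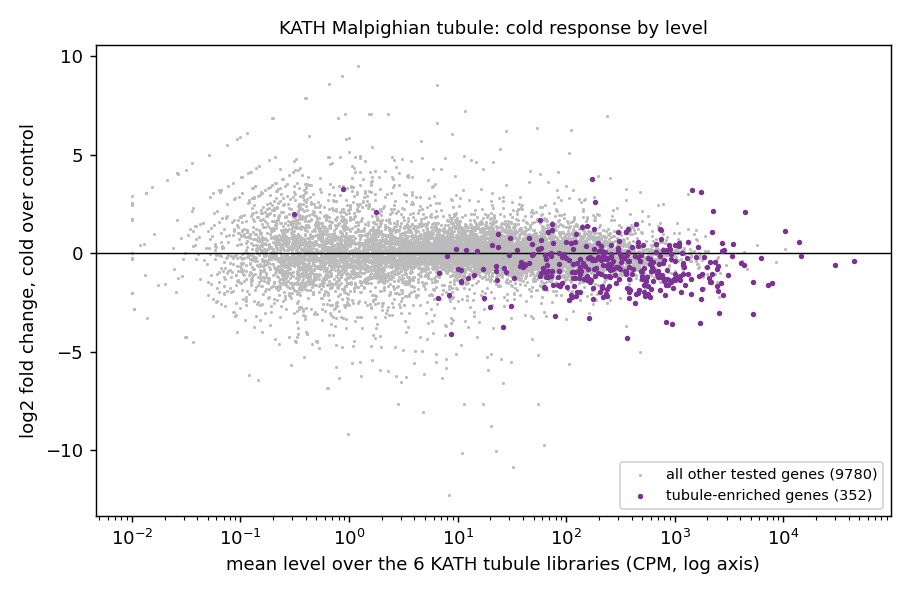
Log2 fold change of cold over control (y axis) against the mean level over the 6 KATH tubule libraries (CPM, log axis, with the 24 genes under 0.01 CPM drawn at 0.01) for every tested gene; purple points are the 352 tubule-enriched genes. Most of the purple points lie below the line at 0, with 207 members called lower and 45 higher.

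The most abundant tubule-enriched genes moved in both directions. Of the 20 with the highest KATH control level per kilobase, 16 fell, 2 rose and 2 were not called. Ranking by the control libraries of the comparison itself favours falling genes, so no direction is read from these counts. GF15943 (FBgn0092966, on scaffold_12903) had the highest length-scaled level of the set, 35900 CPM per kb in controls and 27000 in the cold. In cold replicates 1, 3 and 4 it stood at 42200, 42600 and 31500 CPM, and in control replicates 1, 4 and 5 at 44100, 55900 and 54300 CPM. On this TMM-adjusted scale the cold libraries were all below the controls, but only narrowly for control replicate 1. The log2 fold change was -0.41 ± 0.16 (SE, adjusted p in edgeR = 0.0435). This call was lost in 9 of 15 alternative analyses, with adjusted p between 0.0026 and 0.333. Among the losses was a required fold change over 2, which a change of this size fails in any case. In KATH control hindgut the gene was at 7.70 ± 4.15 CPM (SD, n = 3).

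GF20843 (FBgn0097849, scaffold_13117) fell more clearly. Its levels were 24400, 22300 and 24200 CPM in the cold and 37000, 33200 and 36700 CPM in controls. The groups were well separated, at a log2 fold change of -0.59 ± 0.14 (adjusted p in edgeR = 0.00253). Both rising genes among the 20 were GF15322 and GF23013. GF15322 (FBgn0092347, scaffold_12916) was at 16600, 18100 and 15300 CPM in the cold against 9260, 11100 and 13000 CPM, a log2 fold change of 0.59 ± 0.13 (adjusted p = 0.00231). GF23013 (FBgn0100007, scaffold_12911) went from 6610, 6000 and 6770 CPM to 15600, 15700 and 11600 CPM, a log2 fold change of 1.15 ± 0.19 (adjusted p = 0.000169). The calls of GF20843 and GF15322 were each lost in 3 of 15 alternatives, with adjusted p from 7.79e-07 to 0.178 and from 2.62e-07 to 0.0984. For both genes this includes a required fold change over 2, which changes of this size fail in any case. In KATH control hindgut GF15322 and GF23013 were close to absent, at 1.11 and 1.80 CPM. The rule that chose them asked for low hindgut levels in the Bangkok controls. In KATH control body they were at 227 and 131 CPM. In controls their length-scaled levels were 10000 CPM per kb for GF15322 and 9270 CPM per kb for GF23013, and in the cold 15100 and 20500 CPM per kb.

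Abundant genes outside the tubule-enriched set moved in both directions. GF14422 (FBgn0091449, scaffold_12916), a broadly expressed gene, rose from 4820, 5330 and 4670 CPM to 6550, 6800 and 6490 CPM, a log2 fold change of 0.42 ± 0.10 (adjusted p in edgeR = 0.0031), a call lost in 2 of 15 alternatives (adjusted p from 2.57e-07 to 0.214). GF13808 (FBgn0090835, scaffold_13266) was at 6410, 6530 and 8780 CPM in the cold and 9240, 8540 and 11500 CPM in controls. One cold library overlapped the controls, and the call (log2 fold change -0.43 ± 0.15, adjusted p = 0.0295) was lost in 7 of 15 alternatives, with adjusted p from 0.00626 to 0.479. The losses of GF14422 and GF13808 both include a required fold change over 2, which changes of this size fail in any case.

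Other abundant members of the tubule-enriched set fell several-fold. GF17563 (FBgn0094581) dropped from 13000, 8040 and 7530 CPM to 867, 965 and 1480 CPM, a log2 fold change of -3.11 ± 0.29 (adjusted p in edgeR = 1.24e-06). Its neighbours by symbol on scaffold_13340, GF17562 and GF17561, fell by 1.61 and fell by 1.48 on the log2 scale. All 3 had their highest cold level in cold replicate 4, at 1480 CPM for GF17563, 5210 CPM for GF17562 and 1610 CPM for GF17561. Reads of closely similar genes may have been split between them by the counting, which was not checked here, so the values of such neighbours are less certain. GF19071 (FBgn0096083, scaffold_13137) fell from 2930, 3440 and 3080 CPM to 254, 248 and 312 CPM, and GF17935 (FBgn0094953, scaffold_13340) from 1740, 1540 and 2000 CPM to 157, 124 and 159 CPM. These were log2 fold changes of -3.54 ± 0.20 (adjusted p = 3.03e-08) and -3.59 ± 0.25 (adjusted p = 1.26e-07), and the 2 groups were an order of magnitude apart in both genes. In the KATH hindgut GF19071 also fell by 1.38 on the log2 scale, while GF17935 was not called there (0.07, adjusted p = 0.856).

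The tubule-enriched genes with the steepest falls were moderately expressed. GF17778 (FBgn0094796, scaffold_13340) had 549, 793 and 711 CPM in controls and 27.0, 34.8 and 43.6 CPM in the cold, a log2 fold change of -4.28 ± 0.70 (adjusted p in edgeR = 0.000168). GF11919 (FBgn0088958, scaffold_13266) went from 21.8, 19.7 and 8.12 CPM to 0.108, 0.724 and 1.98 CPM, a log2 fold change of -4.08 ± 0.69 (adjusted p = 0.000217). GF12849 (FBgn0089883, scaffold_13266) went from 41.6, 56.1 and 50 CPM to 3.10, 2.20 and 5.53 CPM, a log2 fold change of -3.76 ± 0.38 (adjusted p = 2.3e-06). In all 3 genes the cold libraries were far below every control, and cold replicate 4 was the least reduced. GF12849 was scarce in KATH hindgut and fell by 3.61 there on the log2 scale (adjusted p = 0.0019), from 0.933 to 0.0739 CPM.

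A minority of tubule-enriched genes rose strongly; those named next were picked after their values were seen. GF13643 (FBgn0090671, scaffold_13266) climbed from 216, 337 and 301 CPM to 3360, 2930 and 1570 CPM, a log2 fold change of 3.20 ± 0.33 (adjusted p in edgeR = 3.36e-06). GF28026 (FBgn0275249, scaffold_12916) climbed from 11.6, 51.5 and 8.15 CPM to 362, 331 and 270 CPM, a log2 fold change of 3.76 ± 0.59 (adjusted p = 0.000118). Cold and control libraries did not overlap in either gene. Both also rose in KATH body, with log2 fold changes of 4.05 and 3.79. GF24164 (FBgn0101158, scaffold_12943) had a fitted log2 fold change of 3.29 ± 0.53, but it stayed at 1.13 to 1.90 CPM in the cold and was nearly absent from KATH control tubules.

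The largest increases among genes with a mean of at least 10 CPM came from near-silent starting levels. GF17054 (FBgn0094073, scaffold_13340) stood at 3.72, 3.05 and 4.25 CPM in controls and at 562, 527 and 313 CPM in the cold, a log2 fold change of 6.99 ± 0.50 (adjusted p in edgeR = 1.26e-07). GF10120 (FBgn0087161, scaffold_13337) went from 3.19, 3.67 and 1.84 CPM to 321, 269 and 72.0 CPM, a log2 fold change of 6.25 ± 0.90 (adjusted p = 5.6e-05). GF12192 (FBgn0089231, scaffold_13266) went from 0.188, 0.131 and 0.137 CPM to 30.8, 33.7 and 4.84 CPM, the highest log2 fold change of the named genes at 7.22 ± 1.20 (adjusted p = 0.000194). In all 3 genes the groups were far apart, though a lack of overlap was required by their choice. Cold replicate 4 was the lowest of the cold libraries in each. GF10120 was almost undetected in KATH hindgut (0.0419 CPM in controls and 0.108 in the cold), and in KATH body it was at 0.0821 CPM in controls and 6.23 CPM in the cold.

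Several of the rising genes were hindgut genes in the control state. GF14655 (FBgn0091682, scaffold_12916) was at 1690 ± 101 CPM in KATH control hindgut and at 2.57, 0.984 and 0.302 CPM in control tubules. It reached 170, 112 and 36.7 CPM in cold tubules, a log2 fold change of 6.38 ± 1.03 (adjusted p in edgeR = 0.000146). GF14653, from the same scaffold, rose from 0.939, 0.492 and 0.796 CPM to 90.6, 63.1 and 12.1 CPM, with a log2 fold change of 6.21 ± 1.07 (adjusted p = 0.000248). Cold replicate 4, which held the most hindgut transcripts of the 6 libraries, had the lowest level of both genes among the cold libraries. The part of hindgut transcripts in these levels was not tested. Without that library the log2 fold change of GF14653 was 6.69.

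The remaining genes of the 8 highest behaved alike. GF11379 (FBgn0088419, scaffold_13266) rose from 1.78, 0.689 and 1.18 CPM to 59.9, 61.6 and 22.8 CPM, with a log2 fold change of 5.30 ± 0.50 (adjusted p in edgeR = 1.29e-06). GF11516 and GF11515, consecutive symbols on scaffold_13266, had log2 fold changes of 5.10 ± 0.69 (adjusted p = 3.4e-05) and 4.76 ± 0.63 (adjusted p = 2.56e-05). GF11516 reached 317, 254 and 53.8 CPM from 7.73, 5.18 and 5.27 CPM, and GF11515 reached 26.5, 39.8 and 9.88 CPM from 0.876, 1.31 and 0.631 CPM. None of the 3 overlapped between groups, which their choice required, and cold replicate 4 again had the lowest cold level in each.

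**Figure D3:**
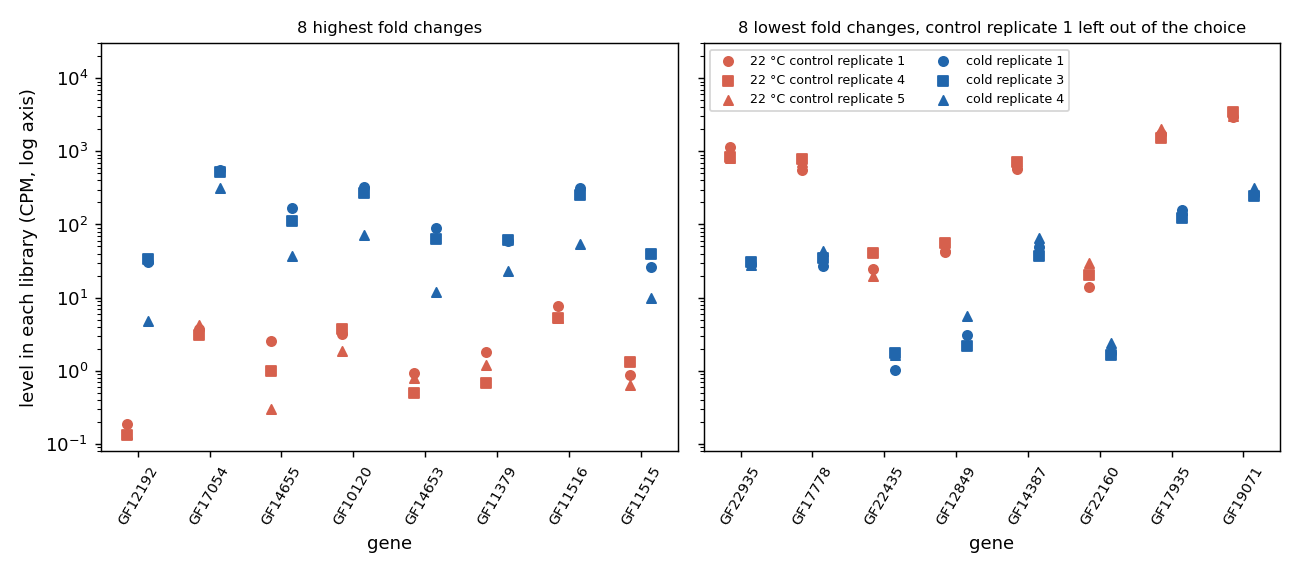
Level in each KATH tubule library (CPM, log axis) of the 8 genes with the highest log2 fold changes (left) and 8 with the lowest (right). The right panel shows the 8 lowest chosen without control replicate 1, so GF25149, GF24436, GF13654 and GF11588 are not drawn. Colour gives the treatment and marker shape the replicate. Every gene is separated by treatment, which the choice of the left panel required. In the left panel cold replicate 4 (triangles) is the lowest cold library of each gene, such as 4.84 CPM for GF12192 against 30.8 and 33.7.

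The steepest fitted decreases rested on a single library. GF25149 (FBgn0102141, scaffold_13337) had 6142 counts in control replicate 1 and 3 counts in each of control replicates 4 and 5, while the cold libraries held 0, 2 and 2. GF24436 (FBgn0101430, scaffold_13337) had 2091, 16 and 6 counts in controls and 0, 2 and 0 in the cold. Their fitted log2 fold changes, -10.85 and -10.15, depend on the handling of counts near 0. Against a floor of 3 counts in each cold library, the control means were at least 783-fold and 269-fold higher, but the median control library was only 1.17-fold and 6.22-fold above it. Both are body genes, at 217 and 331 CPM in KATH control body. GF11588 (FBgn0088628, scaffold_13266), another of the 8 lowest at -3.76 ± 1.15 (edgeR adjusted p = 0.0147), had 60.4 CPM in control replicate 1 and 4.85 and 3.95 CPM in the others. Without control replicate 1 none of the 3 was called, with adjusted p of 0.635, 0.0789 and 0.261. Over all alternatives their adjusted p ranged from 0.00408 to 0.669, from 0.00156 to 0.183 and from 0.00858 to 0.452.

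This library also stood apart genome-wide. In control replicate 1, 45 genes had at least 10 CPM and more than 20 times the level of either other control library, and 44 of them were higher in KATH control body than in the library. Of the 45, 15 were called in the cold comparison, where 46.4% of all tested genes were called. Cold replicate 4 held 17 such genes, all higher in KATH hindgut, of which 6 were called. Control replicate 4 held 0 and the other libraries 2 to 9, none of them called.

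The 8 lowest genes were therefore also chosen without control replicate 1, and their values over all 6 libraries are given here. GF22935 (FBgn0099929, scaffold_12911) was the lowest of them, with 1140, 842 and 820 CPM in controls and 28.5, 30.5 and 28 CPM in the cold. The cold libraries were nearly equal, at a log2 fold change of -5.01 ± 0.32 (adjusted p in edgeR = 8.18e-08). GF22435 (FBgn0099431, scaffold_13248) went from 24.7, 41.3 and 20 CPM to 1.02, 1.74 and 1.65 CPM, a log2 fold change of -4.28 ± 0.67 (adjusted p = 0.000111). GF14387 (FBgn0091414, scaffold_12916) went from 582, 723 and 665 CPM to 48.6, 36.7 and 66.3 CPM, a log2 fold change of -3.70 ± 0.25 (adjusted p = 1.07e-07). GF22435 was far more abundant in KATH hindgut and body, at 2270 and 2130 CPM in controls, where it fell by 3.82 in the hindgut and fell by 4.39 in the body on the log2 scale. GF14387 fell by 1.42 in the hindgut and fell by 1.17 in the body. GF22160 (FBgn0099159, scaffold_12929) fell by 3.45, from 13.9, 20.3 and 29.9 CPM to 1.75, 1.66 and 2.41 CPM.

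Other falling genes were scarcer. The broadly expressed GF10681 (FBgn0087722, scaffold_13337) fell from 10.3, 7.28 and 11.8 CPM to 0.673, 0.885 and 0.950 CPM, a log2 fold change of -3.54 ± 0.32 (adjusted p in edgeR = 1e-06). GF13654 (FBgn0090682, scaffold_13266) fell from 30.1, 19.0 and 12.5 CPM to 0.862, 0.724 and 0.874 CPM, a log2 fold change of -4.64 ± 0.46 (adjusted p = 2.22e-06). It was not called in KATH hindgut (0.31, adjusted p = 0.427) and rose in KATH body, with a log2 fold change of 1.96. No gene went from 3 counts or fewer in every library of one treatment to 10 CPM or more in every library of the other.

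Genes with consecutive symbols sometimes moved together, a pattern chosen for description after the values were seen. Of 6318 pairs of tested genes with consecutive symbols on a scaffold, 103 were both higher by a fold over 2, out of 1209 with either higher, and 72 were both lower out of 893. Over all tested genes, 9.91% were called higher and 8.31% lower by a fold over 2. How many pairs would match if neighbours moved independently was not computed. There were 20 runs of 3 or more. A run of 6 rising genes, GF24418 to GF24423 on scaffold_13337, had log2 fold changes from 2.11 to 4.61. Its most abundant member, the tubule-enriched GF24422 (FBgn0101416), went from 883, 2380 and 1760 CPM to 7610, 8370 and 5760 CPM. In a second run of 6, GF14582 to GF14587 on scaffold_12916, 3 members (GF14584, GF14585 and GF14586) rested on cold replicate 4. GF14586, for example, was at 50.3 CPM there and at 0.70 and 0.992 CPM in the other cold libraries. Among the falling runs, GF18035 to GF18038 on scaffold_13340 had log2 fold changes from -2.33 to -1.90.

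The strength of the response was not equal in the cold libraries. It was read in genes chosen without KATH, those called in the same direction with a fold over 2 in both Bangkok tubules. The 530 genes chosen as higher had median log2 ratios to the KATH control mean of 1.21, 1.23 and 1.05 in cold replicates 1, 3 and 4, and cold replicate 4 had the smallest ratio in 65.5% of them. The 512 genes chosen as lower had medians of -1.30, -1.36 and -1.11, and cold replicate 4 was the weakest in 63.5%. This was also the library with the most counts and the most hindgut transcripts, and the part of either in its weaker response was not tested. Of the 530 and 512 genes, 87.4% and 92.0% were called the same way in KATH. Their median fitted log2 fold changes in KATH were 1.65 and -1.50. The library ratios are smaller than these fitted values, so they are read only between libraries and not as the size of the response.

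KATH tubules shared most of their called changes with the tubules of the Bangkok lines, which are independent libraries. Of the 2338 higher genes, 1589 (68%) were also higher in FastBKK, which is 77.8% of the FastBKK list, and 1684 (72%) in SlowBKK, 68.6% of its list. In those lines 20.2% and 24.2% of all tested genes were higher. Of the 2367 lower genes, 1718 (72.6%; 79.8% of the FastBKK list) and 1711 (72.3%; 76.2% of the SlowBKK list) were lower there too, where 21.3% and 22.2% of tested genes were lower. Opposite calls were rare, at 7 and 14 of the higher and 7 and 13 of the lower genes. Among tubule-enriched genes, 180 (51.1%) were lower and 20 (5.68%) higher in all 3 lines, against 14.7% and 13.4% of all tested genes.

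Tested directly, few responses differed from those of the Bangkok lines. Compared with FastBKK, the other tolerant line, 23 of 10132 genes (0.227%) had a different cold response, 11 more positive (0.109%) and 12 more negative (0.118%) in KATH, and 1252 had an unadjusted p under 0.05. Compared with SlowBKK, the sensitive line, 243 genes (2.4%) differed, 134 more positive (1.32%) and 109 more negative (1.08%). Both comparisons use the same KATH libraries, and the counts depend strongly on the method and on single libraries. With DESeq2 they were 209 and 688. Leaving out single libraries of either line gave 4 to 98 genes for FastBKK and 69 to 379 for SlowBKK, and most such omissions moved the count by over 1.5 times. Without KATH cold replicate 4 they were 85 and 379.

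A gene called in KATH alone was seldom shown to differ. Of the 4705 called genes, 814 were called in neither Bangkok line, but 523 of these had the same sign in both lines and only 4 differed from both by the test of the difference. GF13771 (FBgn0090798, scaffold_13266) was low in KATH control tubules, at 1.25, 0.426 and 0.412 CPM, and rose to 13.1, 14.7 and 12.5 CPM in the cold. In FastBKK it was at 14.8, 26 and 42.3 CPM in controls and 30.4, 29.4 and 37.4 CPM in the cold, and in SlowBKK at 43.4, 58.6 and 35.2 against 66.4, 32.9 and 54.8 CPM. Both Bangkok lines therefore stood above KATH in either treatment, and neither showed a called change. The KATH response of 4.27 ± 0.46 exceeded that of FastBKK by 4.04 ± 0.58 (edgeR adjusted p = 0.0115) and that of SlowBKK by 4.10 ± 0.58 (adjusted p = 0.00398). The first of these calls was lost in 3 of 21 alternatives, among them the one without KATH control replicate 5, with adjusted p from 2.24e-09 to 0.285, and the second in 1 of 21, with a replicate block.

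GF26499 (FBgn0273722, scaffold_13337) rose from 7.76, 5.84 and 6.34 CPM to 131, 153 and 40.6 CPM in KATH, a log2 fold change of 4.02 ± 0.64. Its control levels in FastBKK (33.8, 34.0 and 15.1 CPM) and SlowBKK (25.3, 23.0 and 33.0 CPM) were above those of KATH, while its FastBKK cold levels of 42.8, 8.40 and 9.15 CPM came close to the KATH controls. The responses differed by 4.48 ± 0.83 (edgeR adjusted p = 0.0477) and 3.86 ± 0.82 (adjusted p = 0.0269), but each of these calls was lost in 12 of 21 alternatives, with adjusted p of 2.85e-06 to 0.285 and 3.65e-05 to 0.366. GF23607 (FBgn0100601, scaffold_13337) rose from 8.45, 6.66 and 8.67 CPM to 34.1, 34.1 and 22.6 CPM. The cold levels of KATH thereby came to lie among the values of the Bangkok lines, which ran from 22.2 to 34.3 CPM in both treatments. Its response exceeded that of FastBKK by 1.76 ± 0.25 (adjusted p = 0.0115) and that of SlowBKK by 2.25 ± 0.25 (adjusted p = 0.000717).

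GF25176 (FBgn0102168, scaffold_13337) was the falling gene of the 4. It went from 37.9, 44.7 and 36.7 CPM to 17.6, 18.4 and 20 CPM in KATH, while every Bangkok tubule library held between 46.8 and 55.8 CPM. The difference in response was -1.15 ± 0.13 against FastBKK (edgeR adjusted p = 0.00358) and -1.18 ± 0.13 against SlowBKK (adjusted p = 0.000717). Of the 4 genes, it showed the least spread between libraries. In KATH hindgut it was not called (0.01, adjusted p = 0.973).

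**Figure D4:**
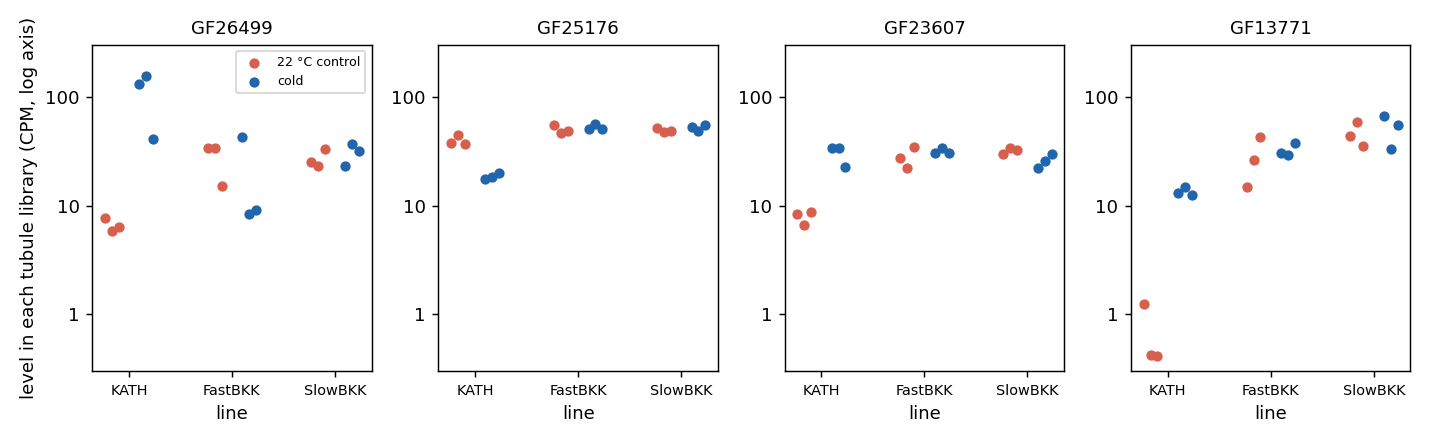
Level in each tubule library (CPM, log axis) of the 4 genes called in KATH alone whose response differed from both Bangkok lines; red points are 22 °C controls and blue points cold libraries, with lines on the x axis. KATH controls lie below every Bangkok library in GF13771 (0.412 to 1.25 CPM) and GF23607, and the KATH cold libraries lie apart in GF25176.

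Among the larger differences from FastBKK, some were changes of larger size in KATH and some were changes called in FastBKK. GF22935 fell by 5.01 on the log2 scale in KATH but fell by 2.74 in FastBKK, where it went from 1890, 1970 and 1480 CPM to 134, 331 and 332 CPM. The difference was -2.26 ± 0.39 (edgeR adjusted p = 0.0381). GF16729 (FBgn0093750, scaffold_13340) fell by 3.35 in KATH and fell by 1.69 in FastBKK, a difference of -1.66 ± 0.29 (adjusted p = 0.0401). GF24330 (FBgn0101324, scaffold_13337) rose from 43.9, 64.7 and 47.1 CPM to 361, 366 and 234 CPM in KATH, and in FastBKK was at 15.9, 26 and 20.5 against 24.8, 32.6 and 33.3 CPM, a difference of 2.08 ± 0.37 (adjusted p = 0.0401). GF17359 (FBgn0094377, scaffold_13340) was not called in KATH, at 1660, 2900 and 3290 CPM in controls and 2650, 3180 and 2790 CPM in the cold. In FastBKK it rose from 444, 596 and 436 CPM to 3490, 4060 and 4580 CPM, so that control levels differed more than cold levels. Each of these 4 calls was lost in 9 to 12 of 21 alternatives.

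Against SlowBKK, the response of GF19418 (FBgn0096427, scaffold_13335) was the weaker one in KATH. It rose from 10.6, 9.25 and 9.14 CPM to 35.5, 44.1 and 37.4 CPM in KATH and from 18.7, 15.3 and 13.9 CPM to 420, 288 and 269 CPM in SlowBKK, a difference of -2.34 ± 0.42 (edgeR adjusted p = 0.0122). GF18129 (FBgn0095147, scaffold_13340) fell by 1.13 in KATH and fell by 3.69 in SlowBKK, a difference of 2.56 ± 0.41 (adjusted p = 0.00708). GF16961 (FBgn0093980, scaffold_13340) was at 9.05, 11.3 and 12.4 CPM in KATH controls and 14.8, 15.1 and 15.9 CPM in the cold, and was not called, while in SlowBKK it rose by 2.95 on the log2 scale. The difference was -2.47 ± 0.37 (adjusted p = 0.00567). GF12684 (FBgn0089718, scaffold_13266) fell by 1.90 in KATH and was not called in SlowBKK (0.44, adjusted p = 0.368), with a difference of -2.34 ± 0.54 (adjusted p = 0.0378) that was lost in 10 of 21 alternatives.

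The tubule response was then set against that of the hindgut of the same line, from separate libraries. In a joint fit of the 36 hindgut and tubule libraries, 2479 of 11942 genes (20.8%) responded differently in the KATH organs, 1360 more positively (11.4%) and 1119 more negatively (9.37%) in the tubule. Of these, 187 were called higher in the tubule and lower in the hindgut, and 141 the reverse. In KATH hindgut 22.6% of the genes tested there were higher in the cold and 23% lower. Of the higher tubule genes tested in both organs, 1248 (54.3%) were also higher in the hindgut, 55.1% of the hindgut list, against 23% of the genes tested in both. Of the lower genes, 1158 (49.8%) were also lower, 48.1% of the hindgut list, against 24.5%. In KATH body 29.7% of the genes tested there were higher and 28.9% lower. Of the higher tubule genes, 58.4% were also higher in the body (39% of the body list), against 34.6% of the genes tested in both. Of the lower tubule genes, 35.6% were also lower (34.4% of the body list), against 24.2%. Opposite calls in the body were 475 of 2354 lower tubule genes, beside the 34.6% of all genes higher there. For the higher tubule genes they were 207 of 2331, beside the 24.2% of all genes lower there.

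Tubule-enriched genes are scarce in the hindgut, where their median log2 fold change was -0.03 over the 340 members tested, with 71 (20.9%) called lower and 60 (17.6%) higher, close to the 23% and 22.6% of all genes tested in the hindgut. The response differed between the organs by the test of the difference in 114 of the 352 genes (32.4%, against 20.8% of all genes tested), and in 99 of these the tubule had the more negative value. Low levels in the hindgut limit this comparison, since by the rule that chose these genes their hindgut level was at least 10 times lower in the Bangkok controls.

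**Figure D5:**
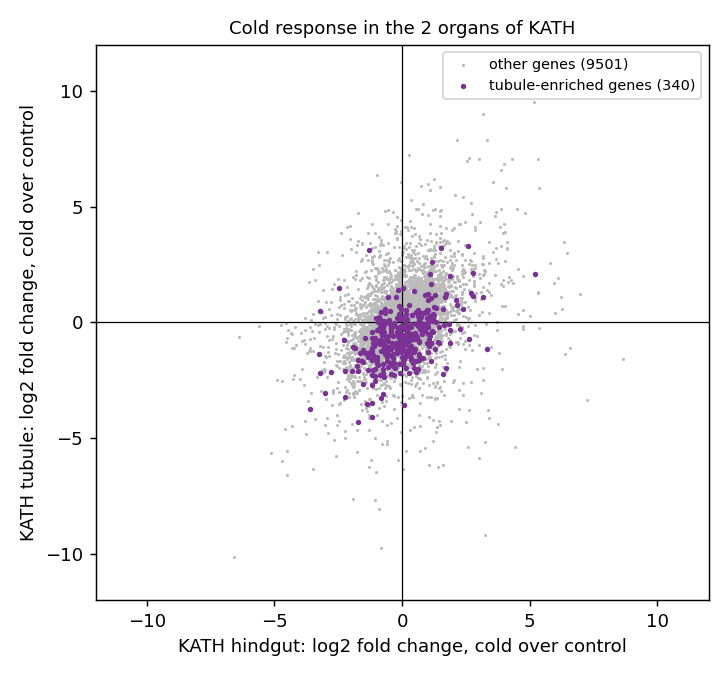
Log2 fold change of cold over control in KATH tubule (y axis) against KATH hindgut (x axis) for genes tested in both organs; purple points are tubule-enriched genes. The purple points lie mostly below 0 on the y axis and on both sides of 0 on the x axis, where their median is -0.03.

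Among genes present in both organs, GF14655 had the most positive difference. Its levels in this fit were 2.79, 1.08 and 0.324 CPM in control tubules and 187, 123 and 40.8 CPM in cold tubules, whereas the hindgut fell from 1560, 1620 and 1440 CPM to 722, 794 and 819 CPM. The organs thus moved in opposite directions, with a difference of 7.38 ± 0.99 on the log2 scale (edgeR adjusted p = 4.81e-06). GF12192 and GF11515 rose in the tubule without a called change in the hindgut, with differences of 6.94 ± 1.13 (adjusted p = 5.83e-05) and 5.14 ± 0.61 (adjusted p = 7.98e-07). In GF12192 the cold tubule came close to hindgut levels, at 33.9, 36.7 and 5.39 CPM against 20.1, 19.5 and 26.9 CPM in the cold hindgut. These genes, and those of the next 3, had a mean of at least 10 CPM in each organ and no overlap in the tubule, a requirement added after the data were seen.

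In the other direction, GF12360 (FBgn0089397, scaffold_13266) fell in the tubule from 55.6, 14.9 and 24.3 CPM to 1.31, 4.00 and 3.27 CPM and was not called in the hindgut, a difference of -4.16 ± 1.02 (edgeR adjusted p = 0.00383). GF22935 fell by 5.01 in the tubule and fell by 1.04 in the hindgut, a difference of -3.95 ± 0.41 (adjusted p = 1.21e-07). GF14815 (FBgn0091842, scaffold_12916) went from 145, 196 and 205 CPM to 99.0, 107 and 131 CPM in the tubule and from 4.82, 3.84 and 2.37 CPM to 22.8, 26.6 and 19.3 CPM in the hindgut. The difference was -3.34 ± 0.41 (adjusted p = 1.29e-06), and in each organ the cold and control libraries were fully separated.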

How the data were processed

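The authors deposited a table of whole-number read counts for 14365 genes in 54 libraries, beside the length and scaffold name of each gene. The submitters' processing notes name FastQC 0.11.9. The aligner, counter, genome build, annotation release and use of strand are not given in the sources used here, so reads of overlapping, antisense or near-identical genes may be shared. No sequence or coordinate was used.

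All 18 tubule libraries were fitted together in edgeR 4.0.16 (R 4.3.3), with 1 coefficient per line and treatment, genes kept by filterByExpr and TMM scaling. Contrasts were tested with the two-sided quasi-likelihood F test (glmQLFit, glmQLFTest) and Benjamini-Hochberg adjustment over all tested genes. Differences between lines were interaction contrasts of this fit. The difference between organs came from a fit of 36 hindgut and tubule libraries. DESeq2 1.42.0 was an alternative. CPM values were computed from the deposited counts with the TMM factors of the fit in question, and hindgut, body and Bangkok means of single genes with factors over all 54 libraries, so levels from different fits differ slightly. Errors of log2 fold changes are SEs, those of levels SDs.

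Genes named were the 8 highest and 8 lowest log2 fold changes among called genes with a mean of at least 10 CPM and no overlap between treatments, the 3 called genes of each direction with the highest mean level, the 3 largest changes and the most abundant member of each gene set, and the 3 highest and 3 lowest of each interaction with a mean of at least 10 CPM. The lists of functional genes and cell type markers drawn up for this purpose could not be used, since no name matched. Tissue distribution sets took their place in the rule. Body-restricted genes had at least 50 CPM in the body and under 1 CPM in the tubules and hindgut of the Bangkok controls. Hindgut-restricted genes had at least 50 CPM in the hindgut and under 1 CPM in the tubules of these controls, with no limit on their body level. The members, lists and comparisons were chosen with earlier results of these data known.

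Libraries held 32.9 to 48.8 M counts in the tubule. Floors and intervals cover counting error only, since no molecular identifiers mark duplicate reads. Replicates differed by more than sampling noise (chi-square per degree of freedom 46 to 203 between pairs of a group), so none was taken as deposited more than once. The fit was tried on simulated counts for the KATH tubule comparison with 9966 genes. It recovered 40.8% of 98 genes changed 2-fold and 75.8% of 99 changed 4-fold, and 5.74% of its calls were false. Few genes were changed there, and only in the KATH cold libraries, while 46.4% of tested genes were called in the data. The rates therefore need not hold for the reported calls.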

Additional observations from a re-analysis of the deposited data

Results flagged for a closer look

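Differences between lines and organs were flagged where the difference in response was itself tested as an interaction in edgeR and called. The response differed in 23 genes between KATH and FastBKK tubules, in 243 between KATH and SlowBKK tubules and in 2479 between KATH tubule and KATH hindgut. For KATH minus FastBKK, the log2 differences of the named genes were 4.48 for GF26499, 4.04 for GF13771, 2.08 for GF24330, -2.90 for GF17359, -2.26 for GF22935 and -1.66 for GF16729. For KATH minus SlowBKK they were 4.10 for GF13771, 3.86 for GF26499, 2.56 for GF18129, -2.47 for GF16961, -2.34 for GF19418 and -2.34 for GF12684. The KATH libraries are common to both comparisons.

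Between KATH tubule and hindgut the named differences were 7.38 for GF14655, 7.28 for GF26290, 7.26 for GF12393, -8.16 for GF27538, -7.12 for GF10600 and -5.11 for GF11615. Each but the first lost its call when single libraries were left out. GF26290 and GF12393 had 0 counts in every control tubule, and 19 and 33 counts in cold replicate 4 against 0 or 1 in the other cold libraries, so their fitted values are no fold. GF27538 and GF10600 had 3882 and 3797 counts in control replicate 1 and at most 13 in the other controls. GF11615 was at 27.7 CPM in control replicate 1 and 7.07 and 1.53 CPM in the others, all above the cold libraries (0.593 to 0.906 CPM). Its difference was -3.56 without control replicate 1, and the call was also lost without control hindgut replicate 4 or 5, as that of GF10600 was without control hindgut replicate 1 or 5 or cold tubule replicate 1 or 4. Groups of 3 libraries are too small for a test of single outlying samples.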

How the results depend on the processing

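The 4705 calls of the KATH tubule response stayed between 3970 and 4480 without single libraries, and between 4435 and 5012 under the other filters, scalings and tool and in a fit of the 6 libraries alone; without control replicate 1 and cold replicate 4 together they numbered 4012. They dropped to 1846 with a fold change over 2 required and to 2068 with a replicate block, 2011 of these shared with the reported calls. Whether replicate numbers mark shared batches is not stated, and the reported fit did not pair the samples. Only 1 and 4 occur in both groups, and the deviations of same-numbered libraries correlated at -0.09 and 0.019. So few libraries cannot settle whether they were paired. With the block, a library whose number is missing from the other treatment of its line and tissue adds nothing to the cold response. In the tubule FastBKK shares replicates 3 and 4, and SlowBKK only replicate 2. The part of these lost libraries in the lower counts with the block was not tested. The block left 154 tubule-enriched genes lower and 27 higher, 239 broad genes higher and 280 lower, 677 genes differing between tubule and hindgut, and 0 for either line comparison, where 756 genes for SlowBKK and 723 for FastBKK had an unadjusted p under 0.05. A fold change over 2 left 1265 genes between tubule and hindgut, 125 against SlowBKK, 25 tubule-enriched genes higher and 136 lower, and 103 broad genes higher and 88 lower.

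Line comparisons depended most on the processing. Against FastBKK (23 genes) DESeq2 gave 209, removal of a gene length trend 39 and a fit of these groups alone 4, and against SlowBKK (243 genes) 688, 441 and 468. Single omissions gave 4 to 98 against FastBKK: 98, 8 and 7 without its cold replicates 1, 3 and 4, 36 and 8 without its control replicates 3 and 4, 4, 5 and 85 without KATH cold replicates 1, 3 and 4, and 12, 8 and 6 without KATH control replicates 1, 4 and 5. They gave 69 to 379 against SlowBKK: 129 and 133 without its cold replicates 2 and 3, 99, 69 and 159 without its control replicates 1, 2 and 5, 113, 93 and 379 without KATH cold replicates 1, 3 and 4, and 95, 152 and 135 without KATH controls 1, 4 and 5. Without KATH control replicate 1 and cold replicate 4 together, chosen after seeing the data, 43 genes differed from FastBKK, 60.5% of them more positive in KATH against 47.8% as reported, and 185 from SlowBKK, 73% more positive against 55.1%. The cause was not tested. Between tubule and hindgut single omissions gave 2082 to 2383 genes. Tubule-enriched genes called lower numbered 189 to 211 and higher 36 to 41, and broad genes higher 485 to 608 and lower 570 to 635.

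Of the tests of single genes, GF27538 changed sign between tubule and hindgut: single omissions gave -9.97 to 0.12, the latter without control replicate 1, and 0.61 was reached without cold replicate 4 in addition. Of 975 values under alternatives, 817 stayed as reported. These values cover single genes and also the numbers of tubule-enriched and broad genes called higher or lower. For a single gene, staying as reported means the same direction and call, and for a number of genes it means no large shift. The share for single genes alone is not given. The planned counts over functional gene lists were not run, since no gene name matched. Depth limited genes near 3 counts a library, where no fold can be given.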

Other observations

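The response was spread over the scaffolds. On the 10 scaffolds with the most tested genes, 19.2% to 25.7% of the tested genes were higher and 20% to 27.9% lower in the cold, and over the remaining scaffolds together 15.3% were higher and 28.1% lower. GF12359 and GF12361, the symbols on either side of GF12360 on scaffold_13266, fell together with it: GF12359 went from 505, 509 and 529 CPM to 97.0, 84.2 and 139 CPM in the tubule, with a log2 fold change of -2.27 ± 0.16 (adjusted p in edgeR = 1.36e-07), and GF12361 was scarce throughout, at 1.62 to 5.79 CPM in controls. In FastBKK and SlowBKK tubules GF12359 had log2 fold changes of -2.34 and -2.45, and in KATH body it was not called (-0.02, adjusted p = 0.891). These 3 genes were picked after their values were seen, and no explanation was tested.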
